A study of Mus musculus with 8 samples.

Results

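The 8 genes described here encode liver-enriched transcription factors, which are *Hnf4a*, *Foxa1*, *Foxa2*, *Foxa3*, *Cebpa*, *Cebpb*, *Onecut1* and *Prox1*. They were chosen by name, as factors of hepatocyte identity, from lists of m6A peaks that were named for 11558 genes in all. All 8 had a peak in *Wtap* flox/flox livers, as did 9020 of the 11558 genes. All 8 also had a peak in *Wtap*-HKO livers, as did 10634 of the 11558 genes. The factors had 21 of the 15635 peaks listed for *Wtap* flox/flox livers and 19 of the 19185 peaks listed for *Wtap*-HKO livers. At most of their sites the m6A enrichment was lower in *Wtap*-HKO livers. The largest difference in the other direction lay at a start of *Hnf4a*.

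In m6ARIP-seq, fragmented mRNA is enriched with an antibody to N6-methyladenosine (IP), and sequence is compared with that of the unselected fragments (input), which gives peaks of methylated RNA. Livers came from mice of strain C57BL/6 (C57BL/6J in the methods) at 8 weeks of age on normal chow, which the methods give as male. Control mice were *Wtap* flox/flox, in which exon 4 of *Wtap* is flanked by loxP sites and the gene is intact. *Wtap*-HKO mice were *Wtap* flox/flox with Alb-Cre, so that the albumin promoter drives the deletion in hepatocytes, while the other cells of the liver keep the gene. The *Wtap* flox/flox livers are called control below. Each genotype had 2 replicates, each of them RNA pooled from 5 mice, with an IP and an input library from each, which makes 8 libraries. The replicates of a genotype were combined by the authors before peaks were listed. No value below therefore has a replicate error, no difference between the genotypes could be tested, and the depth of the libraries is unknown. The lists hold no expression values, so the loss of *Wtap* mRNA could not be checked. Each list named 3 peaks for *Wtap*.

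WTAP is a regulatory subunit of the complex that writes m6A on nascent mRNA, with METTL3 as its catalytic subunit. In most mRNAs the mark lies near the stop codon and in the 3' UTR, and it affects splicing, translation and decay of the transcript. The liver-enriched factors bind each other's genes and form a network that holds hepatocytes in their differentiated state. HNF4A, a nuclear receptor, is at its centre. The FOXA proteins are pioneer factors that open chromatin, C/EBPα and C/EBPβ are leucine zipper factors of metabolic and acute phase genes, ONECUT1 is a cut homeodomain factor of liver and bile duct development, and PROX1 is a homeodomain protein that acts as a corepressor of HNF4A.

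Peaks that overlapped between the genotypes by at least 1 exonic base of the same gene were joined to a site, and the sites of a gene were numbered from its 5' end. The 21 and 19 peaks formed 20 sites. Of these, 16 consisted of 1 peak in each genotype (1 to 1 sites), 2 joined several peaks, 2 were listed in control only and 0 in *Wtap*-HKO only. Of the 21 control peaks, 19 overlapped a *Wtap*-HKO peak, against 80.0% of all control peaks. In the other direction, the number was 19 of 19, against 64.6% of all *Wtap*-HKO peaks. The factors had more peaks per gene than the average of each list (2.62 against 1.73 in control, and 2.38 against 1.80 in *Wtap*-HKO). Their peaks were also longer, with a median of 420 exonic nt against 269 in control and 390 against 240 in *Wtap*-HKO.

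Annotated RefSeq starts were reached by the peaks of 3 factors within the 50 nt that follow the start. The sequences at these positions are shown because they are the bases next to a start that peaks of the factors covered. Whether peaks lay in coding sequence or UTRs was not analysed here. Each run is 30 nt of the sense strand of GRCm38.p6, written 5' to 3', and capitals mark the bases inside a *Wtap*-HKO peak.
*Hnf4a* (chr2:163547175-163547204, plus strand): ggaaggcagagaAGGGACCTGGGAGGAGGC
*Cebpa* (chr7:35119313-35119342, plus strand): CGGGCGCGAGCCAGTTGGGGCACTGGGTGG
*Cebpb* (chr2:167688935-167688964, plus strand): ttataaaccTCCCGCTCGGCCGCCGCCGCG

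In *Hnf4a* and *Cebpa* the control peak covered the same bases of these windows, while in *Cebpb* it began farther downstream. The letters GGAC, the core of the usual m6A motif, occurred 2 times in the 50 nt after this *Hnf4a* start, and the second match, at base 35 counted from the start, lay inside the peak. The *Cebpa* and *Cebpb* windows held no GGAC, and on the opposite strand none of the 3 windows held it. Over all 32851 annotated starts, 18.9% had GGAC on the sense strand of this window and 17.4% on the opposite strand, and 5 of the 12 starts of the factors had it on the sense strand. These matches describe letters and do not mark a methylated base.

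*Hnf4a* had sites whose enrichment differed in opposite directions. This gene (ENSMUSG00000017950, plus strand of chromosome 2, 163506811 to 163572907) has annotated starts at 163506857 and 163547155. The downstream start belongs to the promoter that is used in adult liver. Site 1 ran from 163546937 to 163550114 in both genotypes, with 271 exonic nt in 3 blocks, and the longest block began 32 nt after the downstream start. Its fold enrichment was 5.12 in control and 11.5 in *Wtap*-HKO, which was 2.25-fold higher. Site 2 began 22967 nt after this start and had a fold enrichment of 3.79 in control and 1.95 in *Wtap*-HKO, which was 1.94-fold lower. Its peak was 480 nt long in control (163570122 to 163570601) and 241 nt in *Wtap*-HKO (163570212 to 163570452). Site 3 ended 1736 nt before the 3' end of the gene and was weak in both genotypes (1.48 and 1.66). The ratio of site 1 to site 3 was thus 3.46 in control and 6.93 in *Wtap*-HKO. Site 3, the denominator, stood at percentile 0.54 of all control peaks and 1.29 of all *Wtap*-HKO peaks, so the ratio rests on very low values. What lies behind the difference between these ratios was not tested.

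The sites of *Foxa2* and *Foxa3* were lower in *Wtap*-HKO throughout. *Foxa2* (ENSMUSG00000037025, minus strand of chromosome 2, 148042877 to 148046969) had 2 sites. The site at its 3' end, 60 nt from the end of the gene, had a fold enrichment of 16.6 over 961 nt in control and 7.62 over 511 nt in *Wtap*-HKO. The site on the 5' side had values of 7.92 over 900 nt and 4.11 over 571 nt. *Foxa3* (ENSMUSG00000040891, minus strand of chromosome 7, 19013283 to 19023539) had a single peak in each genotype. Its fold enrichment was 5.87 over 1139 nt in control and 2.55 over 600 nt in *Wtap*-HKO. This 2.30-fold difference was the largest downward difference among the 16 sites of 1 peak in each genotype.

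*Foxa1* (ENSMUSG00000035451, minus strand of chromosome 12, 57540628 to 57548029) had a similar enrichment in both genotypes at the 5' side, while the rest of its peaks were shorter and lower in *Wtap*-HKO. Site 1, 124 nt from the annotated start, had a fold enrichment of 3.81 in control and 3.99 in *Wtap*-HKO. Site 2 was a single peak of 1589 exonic nt in control with a fold enrichment of 8.98. In *Wtap*-HKO it was listed as 2 separate peaks of 510 and 151 nt, with fold enrichments of 6.08 and 2.67. Site 3 (57541347 to 57541437, fold enrichment 3.12) was listed in control only. In all, the peaks covered 1771 exonic nt of *Foxa1* in control and 811 in *Wtap*-HKO, which is 45.8%. The *Wtap*-HKO peaks covered 58.1% of the control length in *Foxa2* and 52.7% in *Foxa3*.

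The C/EBP genes, which have a single exon, differed less at their strongest peaks. *Cebpa* (ENSMUSG00000034957, plus strand of chromosome 7, 35119293 to 35121928) had its strongest peak in the middle of the transcript, with a fold enrichment of 8.74 in control and 8.60 in *Wtap*-HKO. These values differ by 1.02-fold. At the start of the gene, 2 control peaks (181 nt with a fold enrichment of 1.94, and 331 nt with 2.49) corresponded to 1 peak of 780 nt in *Wtap*-HKO with a fold enrichment of 4.26. The site at the 3' side was weak in both (1.76 and 1.42). *Cebpb* (ENSMUSG00000056501, plus strand of chromosome 2, 167688915 to 167690432) was covered almost from end to end by 1 peak, of 1327 nt in control and 1357 nt in *Wtap*-HKO. Its fold enrichment was 15.8 in control and 11.1 in *Wtap*-HKO, a 1.42-fold difference.

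**Figure D1:**
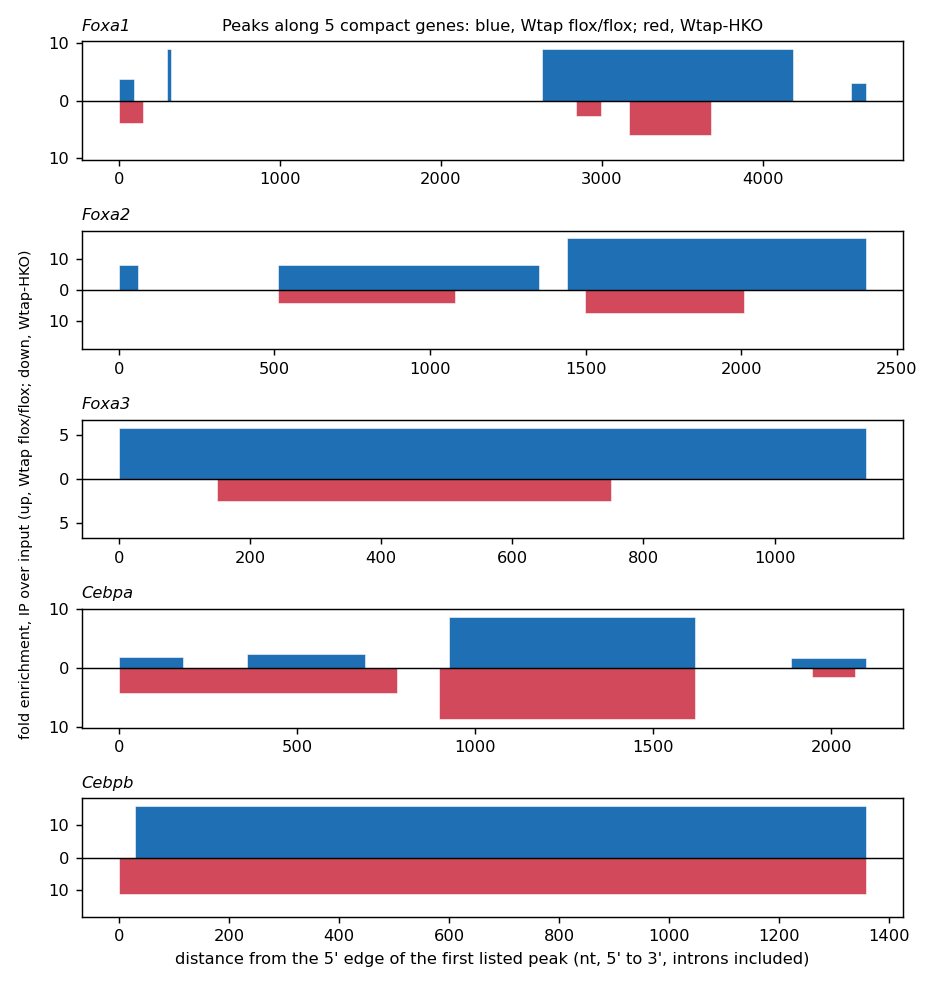
Peaks along *Foxa1*, *Foxa2*, *Foxa3*, *Cebpa* and *Cebpb*. The x axis is the distance in nt from the 5' edge of the first listed peak, introns included, and the y axis is the fold enrichment of IP over input, drawn upward in blue for control (*Wtap* flox/flox) and downward in red for *Wtap*-HKO, on a scale of its own for each gene. Each block is an exonic part of a peak. The *Wtap*-HKO blocks of *Foxa2* and *Foxa3* are lower and shorter (2.55 over 600 nt against 5.87 over 1139 nt in *Foxa3*), whereas the first *Wtap*-HKO block of *Cebpa* is higher and longer.

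*Onecut1* and *Prox1* had lower values at every site found in both genotypes. *Onecut1* (ENSMUSG00000043013, plus strand of chromosome 9, 74861921 to 74889648) carried the most enriched peak of all the factors at its 3' end. Its fold enrichment was 33.0 in control and 19.9 in *Wtap*-HKO, which was 1.66-fold lower. These values stood at percentile 97.9 of all control peaks and at percentile 86.9 of all *Wtap*-HKO peaks. The peak ended at 74889993, beyond the end of the RefSeq gene. The other sites of *Onecut1*, both near the start, had fold enrichments of 7.51 and 5.27 in control and of 5.58 and 3.13 in *Wtap*-HKO. *Prox1* (ENSMUSG00000010175, minus strand of chromosome 1, 190118035 to 190170827) had its peaks in the 5' part of a long gene, with none within 42655 nt of its 3' end. From the 5' side, its sites had fold enrichments of 3.28, 5.94 and 3.08 in control. The values in *Wtap*-HKO were 2.89, 3.30 and 2.56. A weak peak of *Prox1* with a fold enrichment of 1.82 was listed in control only.

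**Figure D2:**
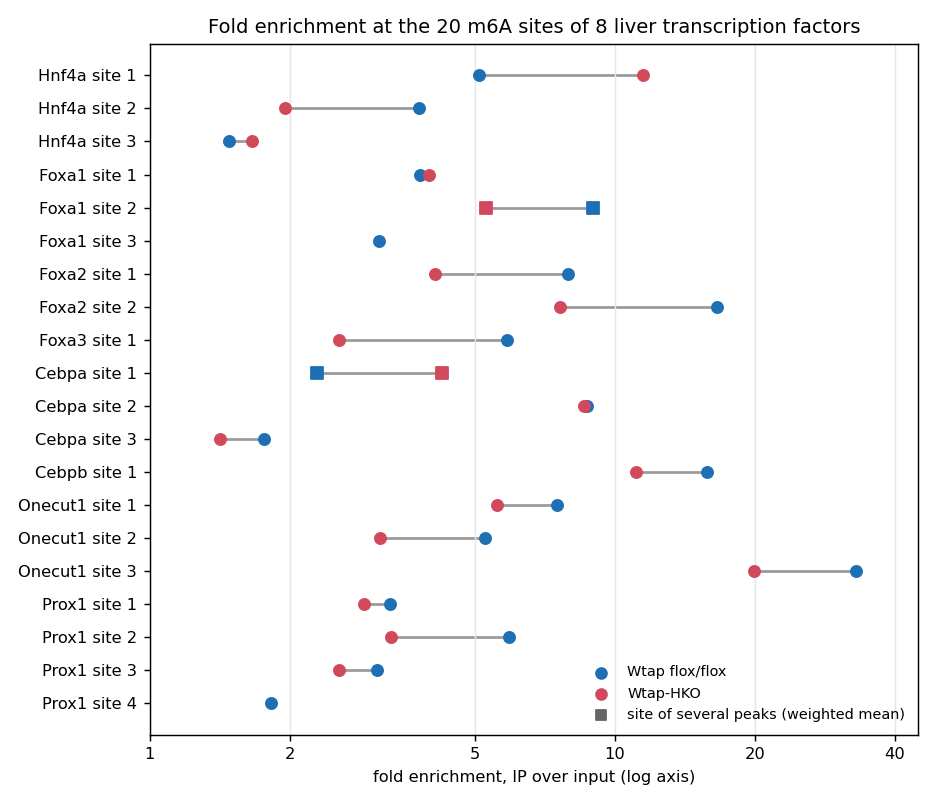
Fold enrichment (IP over input, log axis) at the 20 sites of the 8 factors, with sites numbered from the 5' end of each gene. Blue points are control (*Wtap* flox/flox), red points are *Wtap*-HKO, squares are sites that join several peaks and show a mean weighted by exonic length, and there are no error bars because each genotype has 1 combined list. Red lies left of blue at most sites, *Hnf4a* site 1 (5.12 and 11.5) and *Cebpa* site 1 are the clearest exceptions, and *Foxa1* site 3 and *Prox1* site 4 have no *Wtap*-HKO peak.

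Reads at 3 of these sites could belong to another gene. The 3' peak of *Onecut1* shared 602 nt in control and 531 nt in *Wtap*-HKO with a peak of ENSMUSG00000093662 on the same strand, whose fold enrichments were 32.8 and 20.1. The *Cebpb* peak shared 312 nt with a peak of *Tmem189* on the opposite strand (fold enrichments of 3.41 and 6.67). The 5' peak of *Prox1* shared 44 and 133 nt with a peak of ENSMUSG00000079045 on the opposite strand (8.74 and 4.29). The sources used here do not say that reads were counted by strand. For *Onecut1* the gene that shares the peak gave nearly the same enrichment, while for *Cebpb* the gene on the opposite strand was higher in *Wtap*-HKO where *Cebpb* was lower. For *Prox1*, the gene on the opposite strand was lower in *Wtap*-HKO, as was *Prox1*.

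Over the 16 sites with 1 peak in each genotype, the fold enrichment was lower in *Wtap*-HKO at 13 and higher at 3, while 49.7% of all 10805 such sites of the lists were lower. The median log2 ratio of *Wtap*-HKO to control was -0.47 for the factors and 0.01 for all sites, whose interquartile range ran from -0.59 to 0.66. A difference of more than 1.5-fold downward was found at 7 of the 16 sites, beside 25.1% of all sites. These 7 were both sites of *Foxa2*, the site of *Foxa3*, site 2 of *Hnf4a*, site 2 of *Prox1* and sites 2 and 3 of *Onecut1*. More than 1.5-fold upward lay 1 site, *Hnf4a* site 1, beside 27.8% of all sites. The 16 sites come from 8 genes, and sites of the same transcript are not independent. Leaving out the sites of each factor in turn gave medians between -0.62 and -0.31.

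**Figure D3:**
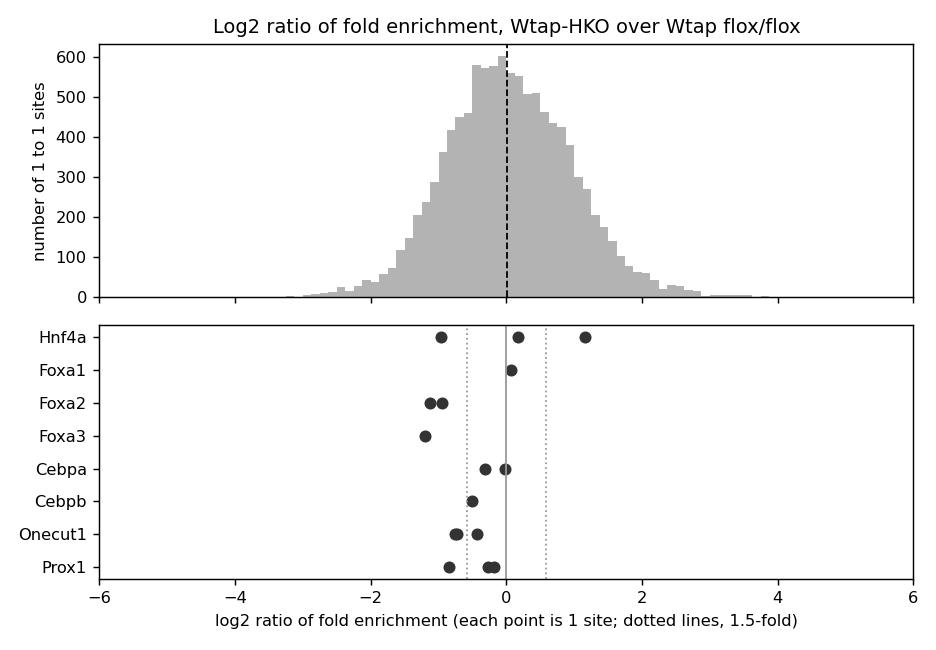
Upper panel, number of sites by their log2 ratio of fold enrichment, *Wtap*-HKO over control (*Wtap* flox/flox), for all 10805 sites with 1 peak in each genotype, with a dashed line at their median of 0.01. Lower panel, the 16 such sites of the factors on the same axis, 1 point per site, with dotted lines at 1.5-fold. The points of 6 factors lie at or left of 0, and *Hnf4a* has points on both sides.

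The rank of a peak among all peaks of its list does not depend on the scaling of that list. It does depend on which peaks are listed, and the lists differ in length (15635 and 19185 peaks). By this measure 14 of the 16 sites stood lower in *Wtap*-HKO, and *Hnf4a* sites 1 and 3 stood higher. The share of all sites that stood lower by this measure was not counted. Among the sites with 1 peak in each genotype alone, 13 stood lower. *Foxa1* site 1 was among the 14, at percentiles 31.0 and 29.5, although its fold enrichment was slightly higher in *Wtap*-HKO. The median percentile of the sites was 50.5 in control and 24.99 in *Wtap*-HKO, while all sites with 1 peak in each genotype had medians of 52.8 and 48.6. *Foxa3* stood at percentiles 53.3 and 10.2, and *Hnf4a* site 1 at 46.2 and 75.8. Of the 16 sites, 9 were shorter in *Wtap*-HKO, beside 42.4% of all sites. The median *Wtap*-HKO length was 89.2% of the control length for the factors and 100% for all sites. Peak edges are set separately in each list, so a shorter peak and a lower enrichment over it are not independent measures.

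The 5'-most and 3'-most sites of the factors differed in one order, while the middle sites of 3 factors did not fall between them. In each of the 5 factors with at least 2 sites of 1 peak in each genotype (*Hnf4a*, *Foxa2*, *Cebpa*, *Onecut1* and *Prox1*), the log2 ratio was higher at the 5'-most than at the 3'-most site. The same held for 62.3% of 2462 genes in the lists. The gap was 1.002 on the log2 scale in *Hnf4a*, between 0.08 and 0.30 in the other 4 factors, and 0.37 in the median of all such genes. Adding the sites that join several peaks brought in *Foxa1* and gave 6 of 6 factors, beside 62.7% of 2768 genes. This order was thus also that of most genes in the lists. In the 3 factors with 3 sites of 1 peak in each genotype, the middle site had the lowest log2 ratio. It was -0.96 in *Hnf4a* (1.17 and 0.17 at the outer sites), -0.85 in *Prox1* (-0.18 and -0.27) and -0.75 in *Onecut1* (-0.43 and -0.73). The middle and last values of *Onecut1* are nearly equal and have no replicate error. With its site that joins several peaks, *Cebpa* also had 3 sites. Its middle value (-0.02) lay between the outer ones (0.89 and -0.31). How often the middle site is lowest among all genes was not counted.

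The sites of the factors close to a start mostly had lower ratios than the bulk of such sites in the lists, a difference that was not tested. Of all 10805 sites, 7932 had an annotated start for their gene, and the 1464 sites with a 5' edge within 200 nt of a start had a median log2 ratio of 0.79 (interquartile range 0.32 to 1.20). The 6 such sites of the factors had a median of -0.31, and 5 of them lay below that range, while *Hnf4a* site 1, at 1.17, lay within it. *Cebpa* site 1, which lies over the start and joins several peaks, is not among the 6, and its log2 ratio of 0.89, from the mean weighted by length, also lay within this range. In *Cebpb* and *Foxa2* these sites belong to long peaks that extend far from the start. Beyond 200 nt, the 10 sites of the factors had a median of -0.74 and 9 of them were lower in *Wtap*-HKO, while the 6468 sites of all genes had a median of -0.16 (interquartile range -0.71 to 0.39). Counted over single peaks, 6 peaks of the factors lay within 200 nt of a start and 2 within 200 nt of the 3' end in control, and 7 and 1 in *Wtap*-HKO. Peaks over a start were counted, but the *Onecut1* peak that runs across its gene end was not, because its edge lies more than 200 nt beyond. The shares of all peaks at these positions were not counted.

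**Figure D4:**
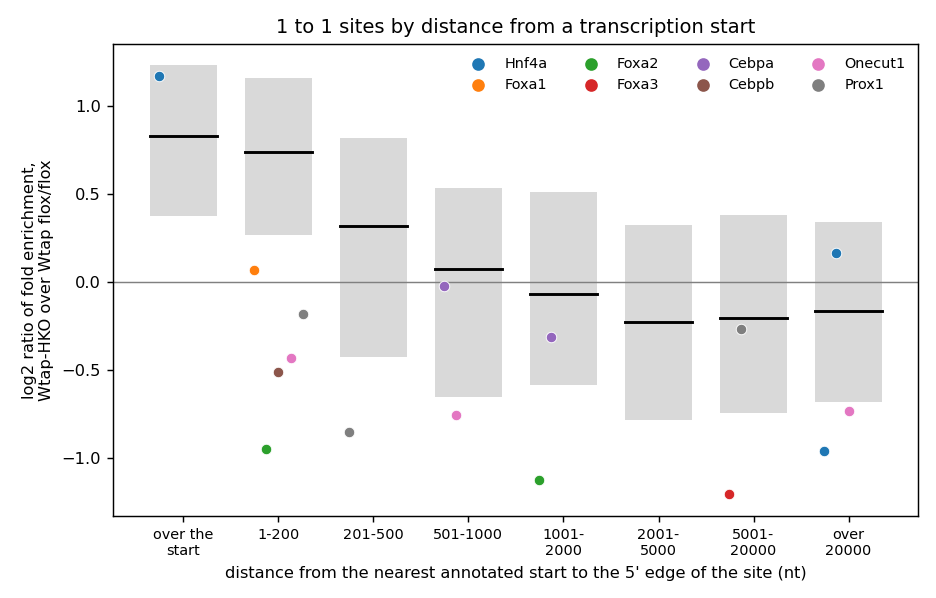
Log2 ratio of fold enrichment (*Wtap*-HKO over *Wtap* flox/flox) of sites with 1 peak in each genotype, by the distance in nt from the nearest annotated start to the 5' edge of the site. Grey boxes give the interquartile range and black lines the median of all such sites with an annotated start, and coloured points are the 16 sites of the factors. The medians of all sites run from 0.83 over the start to -0.17 beyond 20000 nt. The factors' points lie mostly under the black lines, with *Hnf4a* sites 1 and 3 above their lines.

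The list of differential peaks, called by the authors across both genotypes, had 7 rows named for the factors among 3870. They lay at 7 of the 20 sites of the factors, whereas 18.2% of all 21738 sites had such a row. The 7 sites were sites 1 and 2 of *Hnf4a*, both sites of *Foxa2*, the site of *Foxa3*, site 2 of *Foxa1* and site 3 of *Cebpa*. No row was named for *Cebpb*, *Onecut1* or *Prox1*, although the 3' peak of *Onecut1* differed by 1.66-fold, while site 3 of *Cebpa*, at 1.24-fold, had a row. Of the 7 sites, *Hnf4a* site 1 had the higher fold enrichment in *Wtap*-HKO and the other 6 the lower.

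Peaks of genes that mark other cells of the liver were more often listed in *Wtap*-HKO, as were peaks in general. Of all 11558 genes, 9020 had a peak in control and 10634 in *Wtap*-HKO. Of 10 markers of Kupffer cells and leukocytes, 4 had a peak in control and 9 in *Wtap*-HKO, with *Marco*, *Timd4*, *Ptprc*, *Lyz2* and *Cd68* in the second list only. The hepatocyte markers counted 6 of 10 in each list, with *Cyp2e1* in control only and *Ttr* in *Wtap*-HKO only, the endothelial ones 5 of 6 in each, the stellate ones 2 and 4 of 6, and the cholangiocyte ones 2 and 3 of 6, with *Krt19* and *Krt7* in neither. A listed peak gives no level of expression, and in whole liver fewer cells of a type cannot be told apart from less RNA per cell. *Cebpb* is also expressed in macrophages, *Prox1* in lymphatic endothelium, and *Onecut1* and the *Foxa* genes in bile ducts, where Alb-Cre need not delete *Wtap*. The part of these cells in the values above was not tested.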

How the data were processed

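The authors prepared IP and input libraries from poly(A)+ RNA and sequenced 150 bp paired-end reads. Per the labels' processing notes and the methods, they used fastp 0.19.11, BWA mem 0.7.12 on GRCm38 and exomePeak 2.16.0. How replicates were combined and libraries scaled is not given in the sources used here. The deposited fold enrichment is the ratio of IP to input signal on a linear scale, and the deposited false discovery rate is a log10 score. The columns of the authors' differential list that compare genotypes (log2 differences and their p-values) were not used, only its names and positions.

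Peaks were joined by shared exonic bases of the same gene identifier and strand in pandas 2.3.3 with numpy 2.4.6 (Python 3.11.15), and drawn with matplotlib 3.10.9. The joining was tested on copies of the *Wtap* flox/flox list with moved peaks and planted ratios. Starts are 1-based. RefSeq gene spans and starts (GRCm38.p6) were matched by symbol, which found a start for 72.7% of *Wtap* flox/flox and 72% of *Wtap*-HKO peaks and for all 8 factors. The factors and lists were chosen with earlier results of these data known. Companion genes are those with the 2 lowest and 2 highest ratios of each list, taking for each gene its site with the largest absolute log2 ratio, of which some are not reported here.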

Additional observations from a re-analysis of the deposited data

How the results depend on the processing

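Requiring a false discovery rate under 0.01 kept all 21 and 19 peaks, and merging overlapping rows, comparing whole spans, or accepting any gene on the strand changed no count. A minimum overlap of 50% of the bases kept 18 of the control and 19 of the *Wtap*-HKO peaks as shared. The median log2 ratio stayed negative under every setting tried (-0.62 to -0.31), and subtracting the median of all sites gave -0.48. The settings that include or leave out single sites, by gene or by shared bases, were chosen after seeing the data. At a 2-fold limit, 2 sites were lower in place of 7. Sites more than 1.5-fold higher numbered 2 with peaks of at least 2-fold enrichment, where *Cebpa* site 1 became a site of 1 peak in each genotype, 3 over every pair of overlapping peaks, 2 with the sites that join several peaks, and 0 without *Hnf4a*. Counts by position depended on the distance allowed. Within 100 nt of a start lay 3 peaks in each genotype, and within 100 nt of the 3' end 1 in control and 0 in *Wtap*-HKO. Within 500 nt lay 10 control and 8 *Wtap*-HKO peaks at a start, and 3 peaks of each genotype at the 3' end. At a start the order of the genotypes was thus the opposite of that within 200 nt (6 and 7). At the 3' end, the *Onecut1* peak that runs across its gene end was counted only within 500 nt. No paired analysis was possible because the lists hold no value per replicate, and no replicate could be left out for the same reason.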

Other observations

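Other factors of hepatocytes did not show the same balance. Of 26 further transcription factors of the hepatocyte network, all 26 had a peak in control, beside 9020 of 11558 genes. All 26 also had a peak in *Wtap*-HKO, beside 10634 of 11558 genes. Of their 53 sites with 1 peak in each genotype, 27 were lower in *Wtap*-HKO, with a median log2 ratio of -0.09. Their extremes were wider than those of the 8 factors, but the factors had 16 such sites against 53, and extremes widen with the number of sites. Genes are named here by the site with the largest absolute log2 ratio. The lowest were *Nr5a2*, an orphan nuclear receptor of bile acid genes (fold enrichment 26.9 in control and 6.13 in *Wtap*-HKO), and *Nfil3*, a repressor of the clock output genes (9.38 and 2.93). The highest were *Rxra*, the shared partner of many nuclear receptors, at a site over its start (15.1 and 97.3), and *Nr1i3*, a xenobiotic receptor (4.78 and 11.7).

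Among 13 genes that share a name stem with the factors, 11 had peaks in each genotype, 9 of 16 sites were lower and the median log2 ratio was -0.05. *Cebpz* (4.08 and 3.15) and *Cebpg* (10.6 and 8.50) were lowest and *Cebpd* (2.67 and 6.93) and *Prox2* (7.90 and 19.3) highest by these sites, although *Prox2* and *Cebpd* each had another site with a lower log2 ratio (-1.15 and -0.73), as did *Onecut2* (-0.40). Of 14 partners and coregulators, 12 had peaks in each genotype, 12 of 27 sites were lower and the median was 0.09. The Mediator subunit *Med1* (4.41 and 1.78) and the coactivator *Ppargc1a* (6.59 and 3.08) were lowest, and the acetyltransferase *Ep300* (2.75 and 5.35) was highest. Of 20 target genes, 13 had a peak in control and 14 in *Wtap*-HKO, and 8 of 20 sites were lower, with a median of 0.26. *Apoa1* (4.0 and 1.71) was lowest, and *F7* (2.71 and 6.64) and *Apoa2* (2.95 and 7.14), both at sites over a start, were highest. These lists were written with earlier results known, and their differences from the 8 factors were not tested.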
